A study of Homo sapiens with 4 samples.

Results

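The genes that carry out the pro-apoptotic work of the BCL-2 family, namely the pore-forming BAX, BAK1 and BOK and 7 BH3-only genes (BCL2L11, BBC3, PMAIP1, BAD, BID, BMF and BIK), were followed through a purification of RNA bound to the microRNA miR-491-5p. They were taken by name, and each was found as 1 row by its position, giving 10 of the 60554 genes counted. All 10 passed the filter on low values, a mean of 50 normalised counts over the libraries, as did 12662 genes in all. The cells were IGROV1-R10, a human ovarian cancer line, and every group was transfected with a biotin-carrying miRNA duplex at 60 nM. The miR-491-5p pull-down, called the miR-491-5p beads here, is RNA held on streptavidin from cells given miR-491-5p. The control pull-down, or control beads, is the same from cells given the control miRNA, which the design text calls cel-miR-65. The beads stood in the lysate for 4 hours and were washed 5 times. The matching inputs are the 10% of each lysate set aside beforehand, after nuclei had been spun out. Each of these 4 groups is 1 library, made from RNA of 3 experiments pooled together, and untransfected cells were not analysed here. No difference between the miRNAs therefore has a replicate check, and none is given a p-value.

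The proteins of these genes drive the mitochondrial route of cell death. BAX and BAK1 form pores in the outer mitochondrial membrane, through which cytochrome c reaches the cytosol and starts the caspases. Anti-apoptotic relatives such as BCL-xL (from BCL2L1) and MCL1 hold these proteins in check, and BH3-only proteins bind into a groove of the anti-apoptotic proteins or act on BAX and BAK1 directly. In ovarian cancer cells the balance between both sides is known for its part in the response to platinum drugs. A miRNA binds mRNAs through its seed, the bases near its 5′ end, and an mRNA bound by a biotin-carrying miRNA can be held on streptavidin.

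The mature miR-491-5p, the molecule whose partners were sought, is printed with its seed (bases 2 to 8) in capitals, and the other arm of the same hairpin is given for comparison. Both come from RefSeq on GRCh38.p14, where the hairpin lies on chromosome 9. The transfected duplexes were designed molecules, and the sequences are those of the natural miRNA.
hsa-miR-491-5p: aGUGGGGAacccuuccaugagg
hsa-miR-491-3p: cUUAUGCAagauucccuucuac
The seed of miR-491-5p pairs with UCCCCAC in a target. Of 2370 mature human miRNA names in the table, 1 holds this seed, miR-491-5p itself. Transcript sequences were not used here, so sites in the 10 mRNAs were not searched.

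Total gene counts were 61705443 on the miR-491-5p beads, 62582646 on the control beads, 59588552 in the input with miR-491-5p and 47679684 in the input with the control. Counts were divided by DESeq2 size factors of 1.24, 1.13, 0.957 and 0.778 in that order. The ovarian carcinoma markers PAX8, WT1, KRT8, KRT18, KRT19 and EPCAM were detected in all 4 libraries, with MUC16 at 84 to 337 counts and MSLN at 9 to 14. The control input differed most from the others in RNA of another kind. The 8 hepatocyte markers summed to a normalised count of 22.6 on the miR-491-5p beads, 15.1 on the control beads, 8.36 in the miR-491-5p input and 3401 in the control input. Of these 8 genes, 4, 3, 5 and 0 were at 0 counts in that order of libraries. The 5 fibroblast markers summed to 37.2, 37.3, 288 and 744, and the 5 immune markers to 21.0, 16.0, 20.9 and 70.7. Every enrichment, input ratio and control pull-down over input given here, and the edgeR test, rests on the control input. The part of that RNA in them was not tested. The miR-491-5p input also held more fibroblast marker RNA than the beads, and its part in the miR-491-5p pull-down over input was not tested.

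Positions are those of the deposited table on hg38 and span the whole gene, and counts cover all of its annotated exons. BAX (ENSG00000087088.19), BCL2L11 (ENSG00000153094.21), PMAIP1 (ENSG00000141682.11), BID (ENSG00000015475.18) and BIK (ENSG00000100290.2) share no exonic base with another gene of the table. The rest share some, and reads over shared bases were not counted: BAK1 (ENSG00000030110.12) 4.11% of its exonic length, BOK (ENSG00000176720.4) 7.56%, with BOK-AS1, BBC3 (ENSG00000105327.15) 2.52%, BMF (ENSG00000104081.13) 8.46% and BAD (ENSG00000002330.13) 23.7%. The counting ignored strand, so antisense reads are not told apart.

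Levels were compared between genes as normalised counts per kilobase of exon. The full exonic length was used, shared bases included, so levels of genes that share bases can be understated, that of BAD (23.7% shared) most. In the inputs, BIK was the most abundant of the 10, at 1450.5 where cells had miR-491-5p and 1106 where they had the control. BIK is a BH3-only gene whose protein sits largely at the endoplasmic reticulum. In the miR-491-5p input it was followed by BCL2L11 at 873, PMAIP1 at 750.3, BAK1 at 625, BID at 381, BAX at 292, BOK at 185, BAD at 105, BMF at 77.5 and BBC3 at 17.1. The median of all 12662 genes in that library was 319, so that 5 of the 10 lay above it. The order in the control input was the same except that PMAIP1, at 842, stood above BCL2L11, at 734. In the control input BID and BAX, and BMF and BBC3, were neighbours whose exact 95% counting intervals overlapped, and in the miR-491-5p input no neighbours overlapped.

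On the beads the leading gene was another one. BCL2L11, which encodes BIM, a BH3-only protein that binds all of the main anti-apoptotic relatives, had 1374 normalised counts per kilobase on the miR-491-5p beads and 1602 on the control beads. That was 33.9% and 35.6% of the summed level of the 10 genes, against 18.4% in the miR-491-5p input and 16.3% in the control input. BIK made up 14.4% of the sum on the miR-491-5p beads and 10.9% on the control beads, against 30.5% in the input with miR-491-5p and 24.5% in the other. BBC3 was lowest in 3 of the libraries, and on the control beads BAD was lowest at 37.4, with an interval that overlapped that of BBC3 at 43.8. The part of the uncounted shared bases of BAD in this order was not tested. The plot of levels by library shows BCL2L11 at the top on both kinds of beads and BIK at the top in both inputs.

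**Figure D1:**
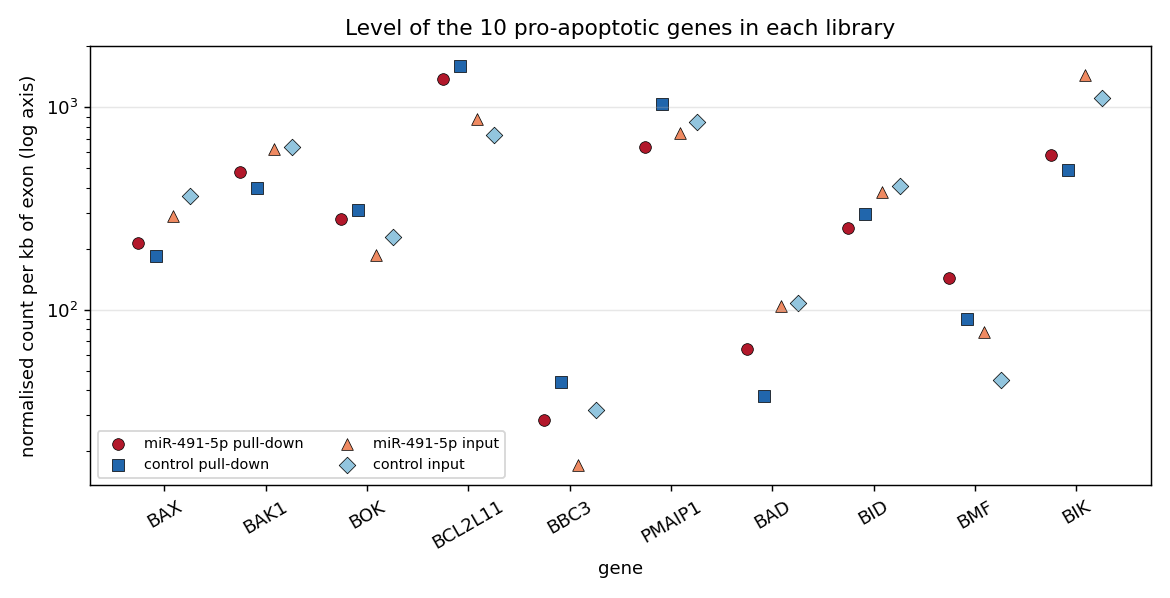
Normalised counts per kilobase of exon (log axis) of the 10 pro-apoptotic genes, with 1 point for each of the 4 libraries. BCL2L11 is highest in both pull-downs, at 1374 and 1602, while BIK is highest in both inputs, at 1450.5 and 1106.

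The enrichment that the design text defines sets the ratio of miR-491-5p to control beads against that of the inputs, to allow for mRNAs that the transfection itself lowers. None of the 10 was enriched or depleted by 2-fold. Over all genes, 4.46% were at least 2-fold higher and 5.32% at least 2-fold lower with a 95% counting interval that excluded 0. The log2 values, taken on normalised counts plus 1, ran from -0.54 for PMAIP1 to 0.81 for BAD, with 5 genes above 0 and 5 below. The values of BID, BMF and BIK turned to 0.05, 0.07 and 0.03 when total counts replaced size factors, a change that moved the median of all genes by 0.18. With size factors the median of the 10 genes was 0.02, where that of all genes was 0.00. The intervals, which cover counting error only, excluded 0 for BAX, BAK1 and BAD above it and for BCL2L11 and PMAIP1 below it. They excluded 0 for 70.7% of all genes too, so that mark is a common one at this depth. No molecular identifiers were counted, so reads are not independent molecules.

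**Figure D2:**
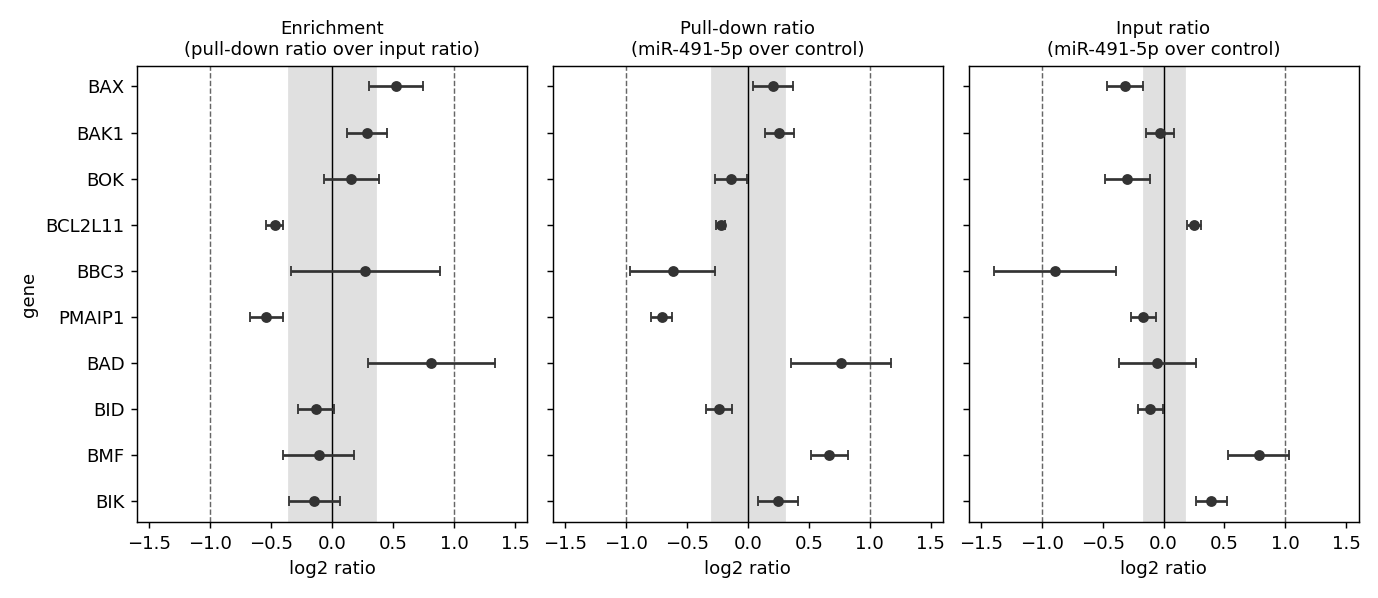
Log2 ratios of the 10 genes for the enrichment, the pull-downs and the inputs, with 95% counting intervals as bars, the middle 50% of all 12662 genes as a grey band and 2-fold as dashed lines. No gene lies past 2-fold in any of the 3 panels, and the values run from -0.54 to 0.81 in the first.

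Among the pore formers, BAX (chromosome 19, 48954815 to 48961798) had normalised counts of 553 on the miR-491-5p beads and 479 on the control beads, and 754 in the miR-491-5p input and 941 in the control input. Both pull-downs were below both inputs. Its enrichment was 0.53 (0.31 to 0.75), from a pull-down ratio of 0.21 (0.05 to 0.37) and an input ratio of -0.32 (-0.47 to -0.17). BAX protein waits in the cytosol of healthy cells and moves to mitochondria when they are stressed.

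BAK1 (chromosome 6, 33572547 to 33580293), whose protein is already resident on mitochondria, had 1056 and 884 normalised counts on beads of miR-491-5p and of the control, and 1382 and 1409.5 in the matching inputs. The inputs were almost level, with a log2 ratio of -0.03 (-0.14 to 0.09). Its enrichment of 0.28 (0.12 to 0.45) thus came from the pull-downs, at 0.26. Scaled by total counts, the enrichment was 0.46 (0.30 to 0.63), outside that interval, and the pull-down ratio 0.41 (0.29 to 0.53).

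BOK (chromosome 2, 241558721 to 241574138), a relative of BAX and BAK1 that the anti-apoptotic proteins restrain little, had 746 and 823 normalised counts on beads of miR-491-5p and of the control, and 492 and 605 in the inputs. It was the pore former whose level was higher on the beads than in the input with both miRNAs. Its ratios between the miRNAs were -0.14 in the pull-downs (0.01 under total counts) and -0.30 (-0.48 to -0.11) in the inputs. The enrichment of 0.16 had an interval of -0.07 to 0.38, which spans 0, and under total counts it was 0.34 (0.11 to 0.56), which does not.

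Of the 7 BH3-only genes, BCL2L11 (chromosome 2, 111119378 to 111168447) was counted most deeply, and its values have the smallest counting error of the 10. It had 9151 normalised counts on the miR-491-5p beads and 10667 on the control beads, against 5812 in the miR-491-5p input and 4885 in the control input. Both pull-downs stood above both inputs. The input ratio was 0.25 (0.19 to 0.31) and the pull-down ratio -0.22 (-0.26 to -0.18), and together they gave an enrichment of -0.47 (-0.54 to -0.40). BCL2L11 was thus 1.19-fold higher in cells given miR-491-5p and 1.39-fold less enriched, both well short of 2-fold. Under total counts its enrichment was -0.29 (-0.36 to -0.22) and its pull-down ratio -0.07 (-0.10 to -0.03), outside the intervals above.

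PMAIP1 (chromosome 18, 59899948 to 59904306), which encodes NOXA, a p53-responsive protein that binds MCL1, had the lowest enrichment of the 10, -0.54 (-0.67 to -0.41). Its normalised counts were 1418 on the miR-491-5p beads and 2316 on the control beads, and 1677 and 1882 in the matching inputs. The control beads were the highest of the 4 libraries and the miR-491-5p beads the lowest. The pull-down ratio was -0.71 (-0.79 to -0.62), at the percentile 7.38 of all genes, and the input ratio -0.17 (-0.27 to -0.06).

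BMF (chromosome 15, 40087890 to 40108892), whose protein is held on the actin cytoskeleton until cells are stressed or detach, had the highest input ratio of the 10. Its normalised counts were 780.3 on the miR-491-5p beads, 490.2 on the control beads, 422 in the miR-491-5p input and 245 in the control input. The input ratio of 0.78 (0.53 to 1.03), a 1.72-fold difference, lay above 98.3% of all genes, and the pull-down ratio of 0.67 (0.52 to 0.82) above 92.4%. The gene was higher with miR-491-5p on the beads and in the lysate alike, and its enrichment was -0.11 (-0.40 to 0.18).

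BBC3 (chromosome 19, 47220822 to 47232766), which encodes PUMA, a main target of p53 in cell death, went the other way in the inputs. It had only 112, 157, 52 and 79 counts on the miR-491-5p beads, the control beads, the miR-491-5p input and the control input. Normalised, these were 90.6, 139, 54.3 and 102. Its input ratio was -0.89 (-1.39 to -0.39), which put it below all but 0.869% of the genes, and the pull-down ratio was -0.62 (-0.97 to -0.27). The enrichment of 0.27 ran from -0.34 to 0.88, the widest interval of the 10.

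BAD (chromosome 11, 64269830 to 64284704), whose protein is kept inactive by phosphorylation and 14-3-3 proteins, had the highest enrichment, 0.81 (0.29 to 1.33). Its normalised counts were 109 and 63.9 on beads of miR-491-5p and of the control, and 179 and 185 in the inputs. Both kinds of beads were below both inputs, with a pull-down over input of -0.71 (-1.03 to -0.38) with miR-491-5p and -1.52 (-1.93 to -1.11) with the control. With 72 to 171 counts per library its interval is wide. Under total counts BAD had an enrichment of 0.99 (0.47 to 1.51), just short of 2-fold. On the other strand 404 of its exonic bases also belong to GPR137, and the part of this overlap in the value was not tested.

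BID (chromosome 22, 17734138 to 17774770), which is cut by caspase-8 to link death receptors to mitochondria, had 1126 and 1328 normalised counts on beads of miR-491-5p and of the control, and 1694 and 1825 in the inputs. BIK (chromosome 22, 43110748 to 43129712) had 556 and 469 in the pull-downs and 1382 and 1054 in the inputs. Their enrichments were -0.13 (-0.28 to 0.02) and -0.15 (-0.35 to 0.06), neither of them beyond counting error. BIK was 1.31-fold higher in the miR-491-5p input than in the control input, at 0.39 (0.27 to 0.52), and BID 1.08-fold lower, at -0.11.

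In the pull-downs alone, none of the 10 was past 2-fold, where 2.5% of all genes were higher and 3.17% lower. The median of the 10 was 0.03, and 5 had a ratio above 0 and 5 below. In the inputs, which give RNA levels in the lysate after transfection, none was past 2-fold either, where 0.727% of all genes were higher and 0.513% lower. There 3 of the 10 were above 0 with an interval that excluded it (BMF, BIK and BCL2L11), 5 were below (BBC3, BAX, BOK, PMAIP1 and BID), and BAK1 and BAD spanned it. The median was -0.08 for the 10 genes and -0.01 for all genes. Under total counts 66.6% of the called enrichments of all genes were higher, against 45.6% before, and 66.5% of the called pull-down ratios, against 44.0%. In such bulk RNA, fewer cells with a transcript and less of it per cell cannot be told apart.

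The clearest differences among the 10 were between beads and input, whichever miRNA the cells had received. BCL2L11, at 0.65 (0.61 to 0.70) with miR-491-5p and 1.13 (1.07 to 1.18) with the control, and BMF, at 0.88 (0.72 to 1.05) and 1.00 (0.76 to 1.23), were higher in the pull-down. BIK was lower, at -1.31 (-1.44 to -1.18) and -1.17 (-1.32 to -1.01). In edgeR's quasi-likelihood test over the 4 libraries, with the transfection as a block, these 3 passed, with log2 fold changes of 1.04 (adjusted p = 0.0317), 1.09 (adjusted p = 0.0344) and -1.09 (adjusted p = 0.0282). BCL2L11 and BMF were thus higher in 2 of 2 pull-downs and BIK lower in 2 of 2. Of all genes 6.82% were called higher and 5.09% lower by this test, 11.9% in either direction. It has 1 residual degree of freedom, its 2 pairs carried different miRNAs, and its p-values measure the spread between these libraries only. Without the block BMF no longer passed (adjusted p = 0.0859).

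The other 7 genes did not pass in edgeR. The nearest to the threshold were BAD, with a log2 fold change of -0.96 (adjusted p = 0.0891), and BOK, with 0.67 (adjusted p = 0.0996). BAD passed when no filter on low counts was set (adjusted p = 0.0112). BBC3 had 0.73 (0.25 to 1.20) with miR-491-5p and 0.45 (0.07 to 0.84) with the control. BAX, at -0.45 and -0.97, BAK1, at -0.39 and -0.67, and BID, at -0.59 and -0.46, were lower on both kinds of beads, with edgeR adjusted p-values of 0.170, 0.275 and 0.268. Under total counts the miR-491-5p values of BAX and BAK1 shrank to -0.13 (-0.28 to 0.02) and -0.07 (-0.18 to 0.04), and that of BID to -0.27 (-0.37 to -0.17). PMAIP1 was the exception, at -0.24 (-0.34 to -0.14; 0.08 under total counts) with miR-491-5p and 0.30 (0.21 to 0.39) with the control, with an edgeR adjusted p of 0.633.

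At 2-fold with an interval that excludes 0, the counts were as follows. With miR-491-5p, 0 of the 10 were higher and 1, BIK, was lower, where 5.34% of all genes were higher and 4.96% lower. With the control, 1 was higher, BCL2L11, and 2 were lower, BAD and BIK, where 8.61% of all genes were higher and 10.0% lower. The median of the 10 was -0.31 on the miR-491-5p beads and -0.08 on the control beads (0.0043 and 0.06 under total counts), where that of all genes was -0.15 in both. Scaling by total counts instead of size factors moved the median of all genes by 0.32 on the miR-491-5p beads and 0.14 on the control beads. Of the genes called on the miR-491-5p beads, 90.8% were then higher, against 51.8% before, and of those on the control beads 62.6%, against 46.2%. BIK then had -0.99 with miR-491-5p, BBC3 1.04 and BMF 1.20, and PMAIP1 turned to 0.08.

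**Figure D3:**
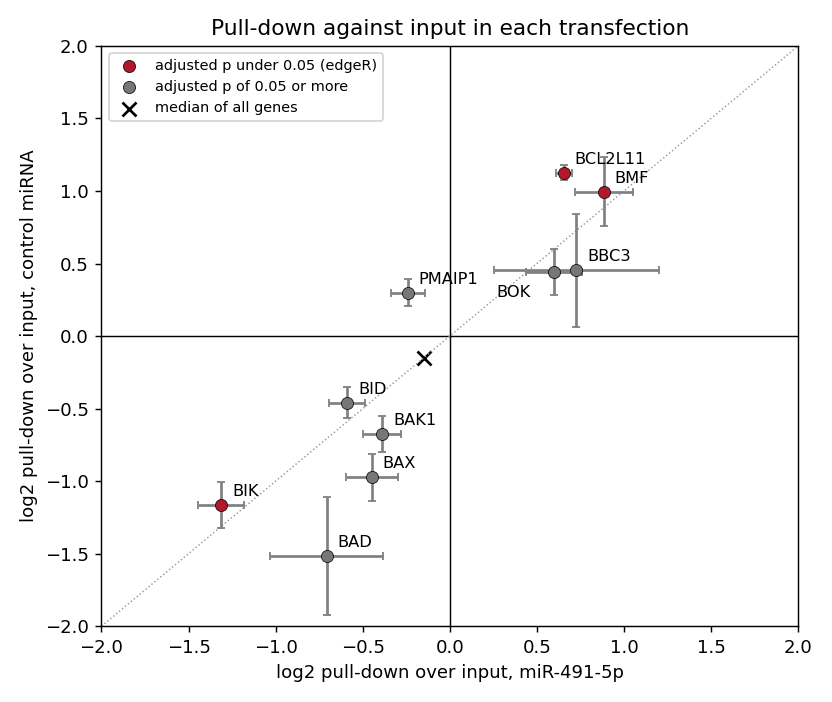
Log2 pull-down over input of the 10 genes for miR-491-5p (x axis) and the control miRNA (y axis), with 95% counting intervals as bars, red for adjusted p under 0.05 in edgeR, a dotted line where both are equal and a cross at the median of all genes. BCL2L11 and BMF lie at the upper right, BIK at the lower left, and PMAIP1 alone has opposite signs, at -0.24 (0.08 under total counts) and 0.30.

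Longer genes among the 10 tended to have a higher pull-down over input, with several out of order. The exonic length was 6658 bases for BCL2L11 and 5447 for BMF, and 953 for BIK and 1708 for BAD. Across the 10, Spearman's rho between exonic length and pull-down over input was 0.73 on the miR-491-5p beads and 0.87 on the control beads. Across all 12662 genes it was 0.25 and 0.29. Genes are not independent replicates, and these values share 4 libraries. BID, with 4446 bases, was at -0.59 and -0.46, below the shorter BOK, with 2657 bases, on both kinds of beads, and on the control beads BAD was below the shorter BIK. Over all genes the median pull-down over input was -0.40 on the miR-491-5p beads and -0.50 on the control beads for genes of up to 2995 exonic bases, and 0.02 and 0.12 for those of over 7257. The part of length in the differences between the 10 genes was not tested.

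**Figure D4:**
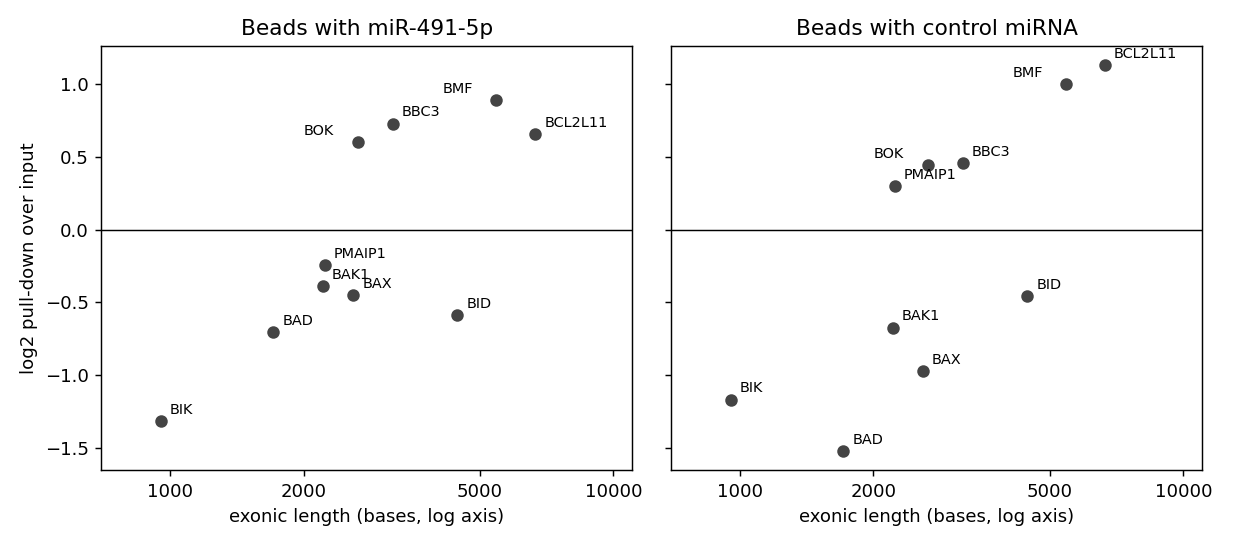
Log2 pull-down over input against exonic length in bases (log axis) for the 10 genes, with miR-491-5p on the left and the control miRNA on the right. BIK, with 953 bases, is at -1.31 and -1.17, and BCL2L11, with 6658 bases, is at 0.65 and 1.13.

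Among the anti-apoptotic partners that these proteins bind, values ran to both sides. BCL2L1 was enriched by 1.27 (1.20 to 1.35), the only 1 of the 4 measured anti-apoptotic genes past 2-fold. MCL1, the partner of NOXA, stood at -0.93 (-0.96 to -0.90) in enrichment and -1.03 in the pull-down ratio, next to the -0.54 and -0.71 of PMAIP1 itself. BCL2, at -1.51 with only 44 to 178 counts per library, was the other anti-apoptotic gene past 2-fold lower in the pull-downs. Its input ratio was -0.91, and its enrichment of -0.59 (-1.27 to 0.08) spanned 0. The median enrichment of the 4 was -0.54. Of all genes, 4.46% were past 2-fold higher in enrichment and 3.17% past 2-fold lower in the pull-downs. The summed levels per kilobase of the pro-apoptotic and anti-apoptotic genes were 4054 and 9150 on the miR-491-5p beads, 4495 and 15176 on the control beads, 4756 and 7924 in the miR-491-5p input and 4506 and 8966 in the control input. The pro-apoptotic sum thus spanned a narrower range than the anti-apoptotic one, of which MCL1 held most in every library.

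Among 19 measured genes for partners and modifiers of the 10 proteins, 1 was enriched past 2-fold, 3 were depleted and 15 were not called, where 4.46% of all genes were enriched and 5.32% depleted. The enriched one was MAPK3, the kinase ERK1, which phosphorylates BIM, at 1.64 (1.40 to 1.89). Its normalised counts were 838 on the miR-491-5p beads and 317 on the control beads, and 549 and 650.2 in the inputs. The depleted ones were YWHAB, a 14-3-3 gene, at -2.59 (-2.62 to -2.56), DYNLL2, the dynein light chain that tethers BMF, at -1.44 (-1.52 to -1.36), and VDAC2, a mitochondrial channel that holds BAK, at -1.10 (-1.16 to -1.04). YWHAB was also higher in the miR-491-5p input, at 43023 normalised counts against 18185 in the control input, and lower in the pull-down, at 24106 against 61360.0. DYNLL2 had 4111 on the miR-491-5p beads and 8959.6 on the control beads. DYNLL1, the tether of BIM, was lower on both kinds of beads, at -1.12 and -1.27 (edgeR adjusted p = 0.0316), with an enrichment of 0.15. On the control beads 2 of the 19 were past 2-fold higher, YWHAB at 1.75 and DYNLL2 at 1.01, and 6 were lower, among them DYNLL1, YWHAE at -1.13 and MAPK3 at -1.03, where 8.61% of all genes were higher and 10.0% lower.

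In the remaining lists no measured gene was past 2-fold in enrichment, in the pull-downs or in the inputs. These were 7 other BH3-containing and BCL-2-like genes, with a median enrichment of 0.16, 8 transcription factors that act on the 10 genes, with 0.08, and 10 genes of mitochondrial release and the apoptosome, with -0.17. Of the transcription factors, FOXO1, which activates BCL2L11, was higher on both kinds of beads, at 0.74 and 0.65 (edgeR adjusted p = 0.0399), and its input ratio was -0.16. FOXO1 was picked after its values had been seen. FOXO3 was at -0.04 on the miR-491-5p beads against 0.25 on the control beads (edgeR adjusted p = 0.435). FOXO4 was lower on both kinds of beads, at -0.42 and -0.50 (edgeR adjusted p = 0.478). CYCS, which encodes cytochrome c, was lower on both, at -1.22 and -1.17 (edgeR adjusted p = 0.0368). ATF4 was past 2-fold lower on the control beads, at -1.12.

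The genes most like BAD over the 4 libraries, by Euclidean distance between centred log2 normalised counts, were SAA1 at 0.034, CRACR2B at 0.037 and H4C13 at 0.043. For PMAIP1 they were VKORC1L1 at 0.033, SLC19A2 at 0.044 and CDK6 at 0.048. The counting standard errors of the log2 ratios were 0.16 to 0.27 for BAD, above these distances, and 0.04 to 0.07 for PMAIP1. Which genes lie nearest can therefore change with counting error. For the other 8 genes the nearest gene lay at 0.0099 to 0.11.

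BCL2L11 was the most abundant of the 10 on the beads and, like BMF and BIK, higher in the miR-491-5p input beyond counting error. Its RefSeq promoter (chr2:111120664-111120963, plus strand, GRCh38.p14) is printed because FOXO factors are known to act on this gene. The forkhead core GTAAACA, searched on both strands, is in capitals.
BCL2L11 promoter: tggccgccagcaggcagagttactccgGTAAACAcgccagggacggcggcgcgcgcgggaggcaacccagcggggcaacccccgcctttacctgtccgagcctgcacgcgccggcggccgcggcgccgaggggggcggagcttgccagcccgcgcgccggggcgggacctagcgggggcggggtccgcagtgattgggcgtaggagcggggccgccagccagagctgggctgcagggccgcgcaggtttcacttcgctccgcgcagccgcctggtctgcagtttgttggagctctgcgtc
The match lies 223 to 217 bases before the RefSeq start, on the gene's own strand. Of the 9 genes with a promoter in the table, 1 (BCL2L11) held these letters, as did 3.42% of all 35116 promoters of the same length. A p53 half-site was found in 1 of the 9, BAK1, and in 6.63% of all promoters. BIK is not in that table. The motifs were chosen after the values had been seen, and a match is a description of the sequence.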

How the data were processed

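RNA of 4 libraries was sequenced, 1 per group. The labels' protocols name a stranded total RNA kit. The deposited values are raw counts of reads for each gene. Per the file headers, featureCounts 1.5.0-p1 made them with GENCODE 24 on hg38, ignoring strand and duplicates. The recorded command has no option to count reads over several genes, so such reads are left out. STAR, DESeq2 1.10.1 and GRCh38 also appear in the submitters' processing notes. Depth was 47679684 to 62582646 counts per library.

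Gene names came from RefSeq positions on GRCh38.p14, the same build: 4 of the 10 genes matched within 20 bp at both ends and 6 by the best overlap (at least 0.4 of the joint span, an end within 2000 bp). In all 40457 rows were named, and 11598 of the 12662 used. Counts were divided by DESeq2 1.42.0 size factors, and a pseudocount of 1 was added before log2 ratios. The counting standard error used each count plus 0.5, and the interval is 1.96 of them on each side. Genes needed a mean normalised count of at least 50, and a call needed 2-fold and an interval excluding 0. Pull-down against input was tested with edgeR 4.0.16 (quasi-likelihood, TMM, Benjamini-Hochberg over 12662 genes, threshold 0.05). Pull-down and input of a transfection are from 1 lysate, per the labels' protocols, which is the pairing behind the block. The calculations were tested on simulated counts.

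The 10 genes and the lists were chosen with earlier results of these data known. All 10 are described. Of the lists, BCL2L1 and MCL1 are named always, and in each comparison the genes past 2-fold, at most 4 per list, and the 3 nearest genes of the 2 members with the largest absolute enrichment. FOXO1 was named after its values were seen, and FOXO3 and FOXO4 are given beside it. Alternatives were another scaling (total counts, TMM), pseudocounts of 0.5 and 5, other filters, 1.5-fold, DESeq2, no block and leaving out a transfection. Listed genes whose position was not matched (BNIP3L, VDAC1 and CASP6) were not analysed here.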

Additional observations from a re-analysis of the deposited data

Results flagged for a closer look

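PMAIP1 was below its input on the miR-491-5p beads, at -0.24, and above it on the control beads, at 0.30, with both counting intervals on opposite sides of 0, a difference of -0.54. With 1 library for each miRNA the difference was not tested. Under total counts the value with miR-491-5p became 0.08, and the 2 signs were then no longer opposite.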

How the results depend on the processing

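Of 625 recomputed values, 165 summary values and 374 values of single genes kept their direction and side of the threshold, or moved by less than 1.5 times or their counting interval. The rest did not: 50 summary values moved further. Among single-gene values 28 moved further, 5 were marked stronger, 2 weaker and 1 reversed. None of the 10 genes passed 2-fold in enrichment, in the pull-downs or in the inputs under any scaling, pseudocount or filter tried. In edgeR, BCL2L11 and BIK passed under DESeq2, size factors, total counts, no filter and the absence of the block. BMF passed under the first 4 but not without the transfection as replicate block (1.07, adjusted p = 0.0859). With no filter BAD also passed, as lower on the beads (-1.08, adjusted p = 0.0112). PMAIP1, at 0.18 in edgeR, was -0.24 without the control libraries and 0.30 without those of miR-491-5p. Genes called lower by this test were 10.5% with DESeq2, 10.2% with size factors and 3.37% with total counts.

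Under total counts, calls over all genes were 7.01% higher and 3.51% lower in enrichment, and 4.12% and 2.08% in the pull-downs, where the median of the 10 was 0.19. On the miR-491-5p beads the median of the 10 was 0.0043, 2 were higher (BBC3 and BMF) and 0 lower, against 10.1% and 1.03% of all genes. On the control beads 2 were higher (BCL2L11 and BMF, at 1.14) and 2 lower, against 10.8% and 6.48% of all genes. Total counts turned the sign of the enrichment of BID, BMF and BIK, the pull-down ratio of BOK and PMAIP1 on the miR-491-5p beads. TMM factors turned no sign and also put 2 higher on the control beads, with BMF at 1.03, against 9.06% of all genes.

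At 1.5-fold, 1 of the 10 was called enriched, 2 higher and 2 lower in the pull-downs, 1 and 1 in the inputs, 4 and 3 on the miR-491-5p beads and 2 and 4 on the control beads. All genes then gave 13.2% and 14.0% in enrichment, 10.0% and 10.7% in the pull-downs, 3.44% and 3.03% in the inputs, 12.5% and 20.8% on the miR-491-5p beads and 17.7% and 26.9% on the control beads. With a mean of at least 10, calls were 4.78% higher in the pull-downs, 2.37% higher and 2.12% lower in the inputs, 12.2% higher on the miR-491-5p beads and 14.4% on the control beads. With at least 200, they were 0.289% and 0.222% in the inputs and 3.13% higher on the miR-491-5p beads. BIK, among the 8 genes left, was still called lower on the control beads, and BAD fell below that filter. With no filter they were 1.37% and 1.36% in the inputs, and 2.92% and 5.29% lower on beads of miR-491-5p and of the control. Depth limits BBC3 and BAD most, with 52 to 171 counts per library.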
